A study of Mus musculus with 4 samples.

Results

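Noncanonical imprinting is a form of parent-of-origin silencing in which the maternal copy of a gene is marked in the egg by H3K27me3 (histone H3 trimethylated at lysine 27, the product of Polycomb repressive complex 2) and not by DNA methylation. The mark keeps that copy silent in the early mouse embryo, and at a few genes the imbalance persists in the placental lineages after the H3K27me3 has been replaced by DNA methylation. The 5 genes described here, Slc38a4, Sfmbt2, Gab1, Jade1 and Smoc1, are the mouse genes best known for this behaviour. The rule takes them by name and uses no measured value. Each was examined over its annotated body with 5 kb on either side, and they are 5 of 21887 protein-coding genes for which peaks were counted in the same way.

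The mark was mapped by ChIP-seq, the sequencing of DNA precipitated with an antibody against it, in cells of the mouse glioblastoma line GL261. The control group was GL261 labelled Con, with no treatment named, and the other group was GL261 labelled IR, which was read as irradiated because the series' title names radiation. No source used here gives the dose or when the cells were harvested. All 4 libraries came from the same line grown in the same medium: 1 H3K27me3 library for each condition, whose lists of enriched regions (peaks) are used here, and 1 input library for each, not analysed here by itself. With 1 library per condition no difference between conditions could be set against replicates or tested, and every interval covers counting error only. The lists carry no information on alleles, so the maternal and paternal copies of these genes cannot be told apart. GL261 is one established tumour line and not an embryonic or placental tissue, and no expression was measured by which the labelled cell type could be checked.

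There were 9866 control and 16091 irradiated peaks, with a median width of 357 and 364 bp. Most were weak. A q, the p-value adjusted over the genome, of at most 0.05 was reached by 6.84% of control and 15.2% of irradiated peaks. Summits rested on a median of 10 control and 11 irradiated ChIP reads. At the lowest background a peak needed 7 control or 8 irradiated reads. A gene with a peak is therefore one with a listed site and not one shown to lie in a domain of the mark, and a gene without a peak may carry the mark below that limit.

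Of the 5 genes, Slc38a4 alone had a peak in the control list and also in the irradiated list. Sfmbt2, Gab1, Jade1 and Smoc1 had none in either. Over all protein-coding genes, 7.13% had a control peak within 5 kb, 9.75% had an irradiated peak, 4.36% had a peak in both lists and 87.5% had a peak in neither. With 5 genes, a count of 1 does not set the group apart from these shares in either direction. The median number of peaks per gene was 0 in both lists, among the 5 genes and among all genes.

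The base sequence before the start sites is shown first, because Polycomb marks in mammals are known to gather at starts rich in CG pairs. RefSeq starts of build GRCm38.p6, the assembly of mm10, were at hand for 4 of the 5 genes (Slc38a4, Sfmbt2, Gab1 and Jade1), 11 starts in all. The starts of Slc38a4 are numbered 1 to 3 in the direction of transcription. The 250 bases before a start are written 5′ to 3′ along the gene, with every CG pair in capitals. For Slc38a4 the start nearest to any peak is given, followed by its start 1, and for the other genes the start with the most CG pairs.
Slc38a4, start 3, chr15:97020360-97020609, minus strand: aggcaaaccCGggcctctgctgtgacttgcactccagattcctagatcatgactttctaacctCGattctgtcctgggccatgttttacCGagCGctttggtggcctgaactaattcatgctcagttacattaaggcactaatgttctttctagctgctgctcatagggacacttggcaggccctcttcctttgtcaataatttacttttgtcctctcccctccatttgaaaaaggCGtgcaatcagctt
Slc38a4, start 1, chr15:97055957-97056206, minus strand: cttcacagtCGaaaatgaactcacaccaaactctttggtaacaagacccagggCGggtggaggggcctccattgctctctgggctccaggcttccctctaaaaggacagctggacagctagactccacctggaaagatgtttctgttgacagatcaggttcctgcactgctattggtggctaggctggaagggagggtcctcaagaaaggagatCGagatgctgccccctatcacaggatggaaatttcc
Sfmbt2, chr2:10372186-10372435, plus strand: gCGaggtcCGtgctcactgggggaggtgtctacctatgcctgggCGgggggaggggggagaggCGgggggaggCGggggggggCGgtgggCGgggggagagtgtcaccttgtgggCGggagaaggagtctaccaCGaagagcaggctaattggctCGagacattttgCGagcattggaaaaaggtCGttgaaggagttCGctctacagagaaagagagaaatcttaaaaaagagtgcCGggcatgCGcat
Gab1, chr8:80880480-80880729, minus strand: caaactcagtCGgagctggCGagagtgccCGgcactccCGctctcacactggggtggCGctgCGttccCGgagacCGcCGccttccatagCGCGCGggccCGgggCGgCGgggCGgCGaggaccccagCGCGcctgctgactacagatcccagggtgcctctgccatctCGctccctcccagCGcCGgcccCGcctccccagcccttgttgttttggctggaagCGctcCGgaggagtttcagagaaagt
Jade1, chr3:41563501-41563750, plus strand: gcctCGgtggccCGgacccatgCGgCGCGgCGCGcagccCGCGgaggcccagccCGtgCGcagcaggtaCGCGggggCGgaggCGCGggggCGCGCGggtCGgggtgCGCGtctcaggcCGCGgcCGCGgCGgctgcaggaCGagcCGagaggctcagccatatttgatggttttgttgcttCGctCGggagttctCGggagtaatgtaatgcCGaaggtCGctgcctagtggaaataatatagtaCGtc

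The 3 starts of Slc38a4 had 3, 5 and 5 CG pairs, below the median of 6 over all annotated starts. The 2 starts of Sfmbt2 had 8 and 15, those of Gab1 24 and 25, and the 4 of Jade1 16, 6, 35 and 18. The Jade1 start with 35 pairs lay at the 97.4th percentile of all starts, and the Gab1 starts at the 89.3rd and 90.4th. Of these 4 genes, Slc38a4 was the one that held peaks and the one with no start above that median. Only 1 control and 0 irradiated peaks at Slc38a4 had a summit within 1000 bp of a start. The chromosomes differed too: 20.4% (control) and 23.8% (irradiated) of chromosome 15 genes had a peak. On chromosomes 2, 8 and 3 these shares were 2.85% to 6.04% and 4.78% to 10.4%. A link between start sequence and peaks at these genes was not tested. Over 32817 annotated starts, a peak lay within 1000 bp of 0.801% of them (control) and 1.41% (irradiated). Among the 12396 starts with at least 10 CG pairs the shares were 0.0242% and 0.0887%, which is 3 and 11 starts. Among the 20421 starts with fewer they were 1.27% and 2.21%. In both lists peaks were thus rarer near CG-rich starts, the reverse of the known pattern named above. A CG-rich start without a peak, as at Sfmbt2, Gab1 and Jade1, was the usual case in these lists and not particular to these genes. The cut at 10 pairs was chosen after the values of the genes were known.

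**Figure D1:**
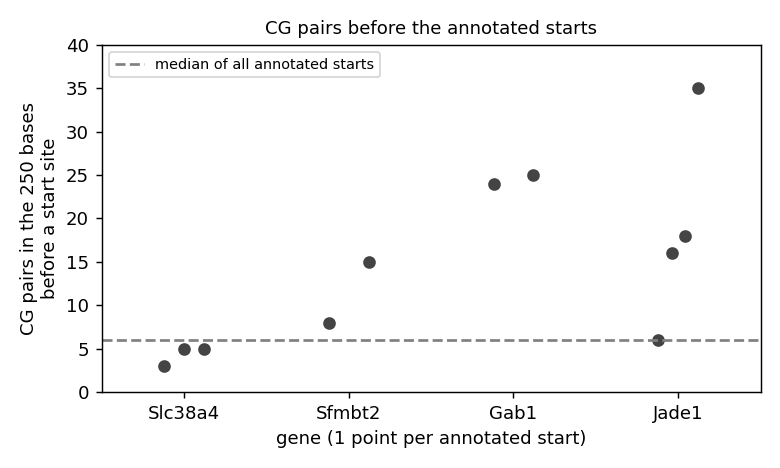
Each point is an annotated start, placed by the number of CG pairs in the 250 bases before it (vertical axis) for 4 of the genes, and the dashed line is the median of 6 over all starts. The 3 points of Slc38a4 lie below the line at 3 to 5, and the highest point is the Jade1 start at 35.

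Slc38a4 encodes a transporter of neutral amino acids in the membrane of liver and placental cells. It lies on the minus strand of chromosome 15 (96994816 to 97055956, 61.1 kb) and held 4 control and 4 irradiated peaks in its region. At least 4 peaks were held by 1.03% of all protein-coding genes in the control list, by 2.36% in the irradiated list and by 0.836%, or 183 genes, in both. Of the 5 chromosomes that hold these genes, chromosome 15 had the most peaks in both lists, and 14.7% of its 776 protein-coding genes held peaks of both lists and 4.90% had at least 4 in both. At the average density of that chromosome, 22.2 control and 27.9 irradiated peaks per Mb, a region of this length would hold 1.58 and 1.99 peaks.

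The 4 control peaks were spread over 49.0 kb and were narrow, 284 to 301 bp. In the model that recovered reads and background, the fold is the scaled reads plus 1, divided by the background plus 1. In the direction of transcription, the first lay in the gene at 97041537 to 97041820, with 13 reads at its summit over a background of 2.00 scaled reads, a fold of 3.02 (q = 0.577). The next, at 97020665 to 97020948, rested on 7 reads, the fewest a control peak could have at the lowest background, with a fold of 2.78 (q = 1). Its near edge was 306 bp before start 3. It was the only one of the 8 peaks with a summit within 1000 bp of an annotated start, and it did not reach into the sequence before start 3 shown above. Then came a peak of 8 reads at 97014166 to 97014455, with a fold of 2.90 (q = 1). The last, at 96992864 to 96993164, lay 1652 bp beyond the 3′ end of the gene and was the strongest, with 12 reads over a background of 1.42, a fold of 3.49 (q = 0.385). Within the control list the folds of the first 3 stood low, at percentiles 25.0, 13.1 and 18.8, and that of the last at percentile 61.2.

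The 4 irradiated peaks stood closer together, within 11.8 kb, and all lay inside the gene. The peak at 97021785 to 97022169 was the first in the direction of transcription, with 11 reads, a fold of 3.55 (q = 0.149), its near edge 1426 bp before start 3. At 97018152 to 97018541, past that start, a peak of 12 reads had a fold of 3.82 (q = 0.149). The peak at 97011689 to 97012687 was 999 bp wide, a width that 2.36% of irradiated peaks reached, and was the strongest, with 11 reads over the lowest background of 0.704, a fold of 4.16 (q = 0.0536). The last, at 97010379 to 97010814, showed a fold of 3.88 on 12 reads (q 0.129). Their folds lay between the 45.5th and the 74.9th percentile of the irradiated list. None of the 8 peaks had a q of at most 0.05; over all protein-coding genes, 0.649% had such a control peak within 5 kb and 2.51% such an irradiated peak. When −log10 p had to be 5 or more, the 999 bp peak was the only one left. Peaks of that strength lay within 5 kb of 1.08% (control) and 3.95% (irradiated) of genes.

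**Figure D2:**
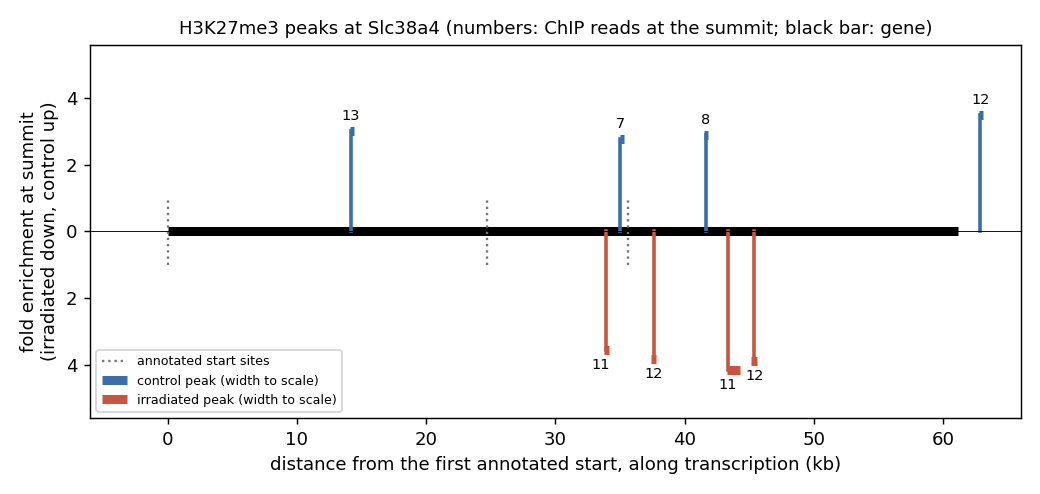
Peaks at Slc38a4 by distance from its start 1 along transcription (kb, horizontal axis) and fold enrichment at the summit (vertical axis; control upward, irradiated downward), with the recovered ChIP reads at each tip. The 4 irradiated peaks cluster around and past start 3, within 11.8 kb, while the 4 control peaks are spread over 49.0 kb and overlap none of them.

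No control peak at Slc38a4 overlapped an irradiated one. The closest pair, the control peak before start 3 and the irradiated peak at 97021785, were 837 bp apart, and the other control peaks were 1479, 17215 and 19368 bp from the nearest irradiated peak. Of the 183 genes with at least 4 peaks in both lists, 41 (22.4%) likewise shared none. The number of peaks was the same in both lists, a ratio of 1.00 with a 95% exact counting interval of 0.186 to 5.37, which takes in the ratio of 1.26 on chromosome 15 and of 1.63 in the genome. Summed over the summits there were 40 control and 46 irradiated reads. These are unscaled, and 1 read counted as 0.620 (control) and 0.554 (irradiated) scaled reads, so the sums are not compared. Every irradiated fold at the gene, 3.55 to 4.16, lay above every control fold, 2.78 to 3.49. The lists were scaled separately and the median fold over all peaks was also the higher one in the irradiated list, 3.67 against 3.43, so the folds of the lists are not on one scale.

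**Figure D3:**
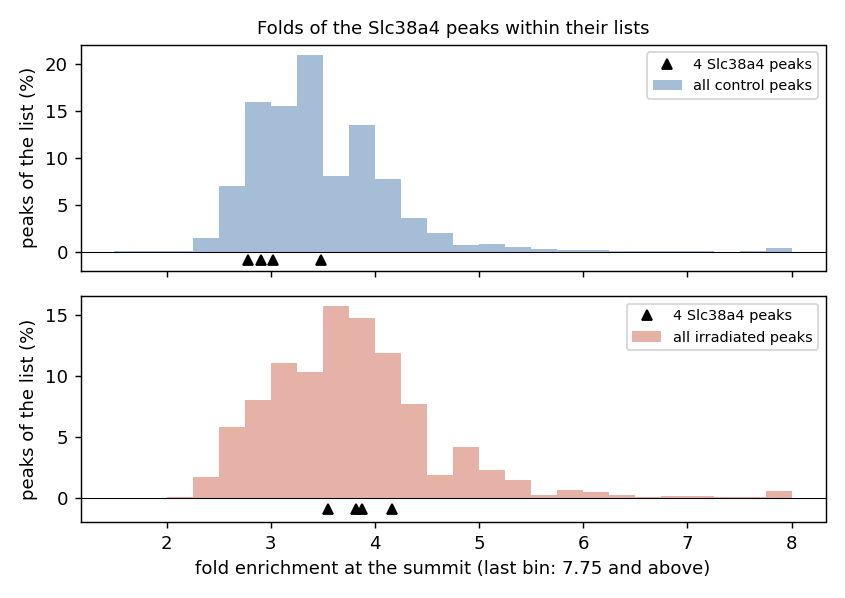
Share of all peaks in each list (vertical axis, percent) by fold enrichment at the summit (horizontal axis), with triangles for the 4 Slc38a4 peaks of that list. The control triangles lie at 2.78 to 3.49, mostly on the left of the control list, and the irradiated ones at 3.55 to 4.16, in the middle of the irradiated list.

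Just outside the limit of 5 kb, the nearest further control peak stood 9605 bp from Slc38a4, with 8 reads and a fold of 3.11, and the nearest further irradiated peak 35.2 kb away, with 14 reads and a fold of 2.92. Within 500 kb of the gene there were 7 control and 37 irradiated peaks, a ratio of 5.29 (2.33 to 14.1). The interval treats peaks as independent. Some irradiated peaks stood in close runs, such as that from 97529323 to 97533593, so the interval may be too narrow. Outside the gene region itself the counts were 3 and 33. The median protein-coding gene of chromosome 15 had 12 control and 28.5 irradiated peaks within 500 kb, so Slc38a4 stood below that median in the control list and above it in the irradiated list. The 188 kb between Slc38a4 and Amigo2, a gene of neuronal cell adhesion and its neighbour at the higher end, held 15 irradiated peaks and 0 control peaks. The 295 kb between Slc38a4 and Slc38a2, its paralogue at the lower end, held 6 and 2. The stretch up to Amigo2 was singled out after its values were seen. Neither Slc38a2 nor Amigo2 had a peak within 5 kb. Just beyond that limit, on the far side of Slc38a2, lay the irradiated peak with the highest fold of the window, 5.79, at 96681646 to 96682010. A control peak with a fold of 3.70 lay a little farther out, at 96677782 to 96678433. A q of 0.05 or less was reached by 5 of the 37 irradiated peaks, the lowest being 0.00171, and by 0 of the 7 control peaks. Over the whole lists it was reached by 15.2% of irradiated and 6.84% of control peaks, so nothing is read from these counts.

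**Figure D4:**
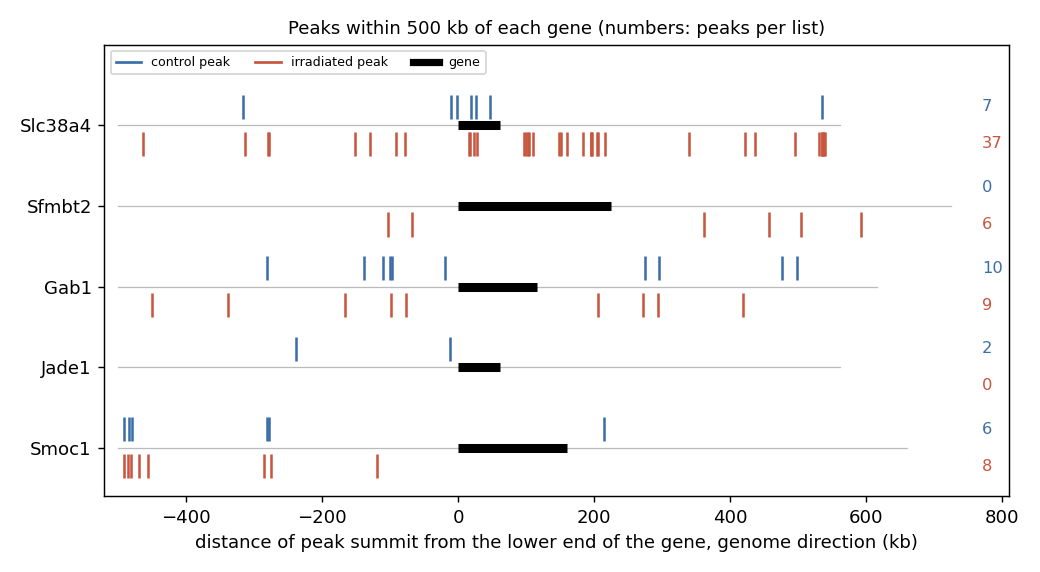
Summits of control (upper ticks) and irradiated peaks (lower ticks) within 500 kb of each gene, by distance from the lower end of the gene in kb (horizontal axis), with the gene as a black bar and the count per list at the right. Ticks fall on the bar at Slc38a4 alone, where 37 irradiated and 7 control peaks lay in the window.

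Sfmbt2 encodes a chromatin protein with MBT domains that is related to the Polycomb group, and its imprinted expression is needed for growth of the placenta. It lies on chromosome 2 (10370440 to 10595253) and is the longest of the 5, at 225 kb. No control peak lay within 500 kb, and the nearest stood 617 kb away, at the higher end. Within 500 kb there were 6 irradiated peaks, the nearest at 10302095 to 10302384, 68.1 kb beyond the lower end, with 11 reads, a fold of 3.55 (q = 0.149). The strongest of the 6, with a fold of 4.49 (q = 0.0536), lay between Sfmbt2 and its neighbour Itih5, which encodes a heavy chain of an extracellular protease inhibitor family. Prkcq, the protein kinase C gene of T cells on the other side, had 2 control peaks and 0 irradiated ones.

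Jade1 encodes a PHD finger protein of a histone acetyltransferase complex. It lies on chromosome 3 (41555734 to 41616864, 61.1 kb), and with Slc38a4 of almost equal length it shows how far the chromosomes differed. On chromosome 3 the lists held 0.997 and 1.66 peaks per Mb, at which a region of this size would hold 0.0709 and 0.118 peaks. The nearest control peak, 11.8 kb beyond the lower end, had 8 reads, a fold of 3.11 (q = 1). Within 500 kb there were 2 control peaks and 0 irradiated ones, and the nearest irradiated peak stood 1114 kb away. The neighbours Pgrmc2 and Sclt1 had no peak in either list.

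Gab1 encodes an adaptor protein that links growth factor receptors to intracellular signalling. It lies on the minus strand of chromosome 8 (80764431 to 80880519, 116 kb). Its surroundings held 10 control and 9 irradiated peaks within 500 kb, a ratio of 0.900 (0.324 to 2.46), but the nearest ones stood 18.8 and 76.5 kb from the gene, both beyond its lower end. The control peak there had 8 reads and a q of 1, and the irradiated one 16 reads, a fold of 3.97 (q = 0.0558). Of the 10 control peaks 0 overlapped an irradiated peak, where 21.4% of the whole control list did. Smarca5, which encodes a chromatin remodeller, and Usp38, which encodes a deubiquitinase, flank the gene and had no peak in either list.

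Smoc1 encodes a secreted calcium-binding protein of the extracellular matrix that modulates bone morphogenetic protein signalling. It lies on chromosome 12 (81026808 to 81186414, 160 kb). Within 500 kb there were 6 control and 8 irradiated peaks, a ratio of 1.33 (0.406 to 4.66). All 8 irradiated and 5 of the 6 control peaks lay on the lower side, and 1 of the 6 control peaks overlapped an irradiated one. Within 500 kb of all 5 genes this was 1 of 25 control peaks; the share of the whole control list was 21.4%, and on these few peaks nothing is read from the difference. The nearest control peak, 55.2 kb beyond the higher end, lay in Slc8a3, a sodium and calcium exchanger gene, with 8 reads, a fold of 2.98 (q = 1). The nearest irradiated peak stood 119 kb away on the other side, with 10 reads and a q of 0.149. Slc10a1, the bile acid transporter gene next to Smoc1, had none.

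Over all protein-coding genes the median count within 500 kb was 2 control and 4 irradiated peaks. The share of genes with the same control count or fewer was 27.3% for Sfmbt2, 54.5% for Jade1, 89.4% for Gab1 and 80.3% for Smoc1. In the same order, the shares for the irradiated counts were 61.0%, 24.6%, 69.2% and 67.0%. Ties are included, so 0 control peaks at Sfmbt2 and 0 irradiated peaks at Jade1, the lowest possible count, still gave 27.3% and 24.6%. For Slc38a4 the shares were 83.6% (control) and 95.1% (irradiated) of all genes, but 36.3% and 58.0% of the genes on chromosome 15. The regions of the 4 genes without peaks covered 602 kb. At the average densities of their own chromosomes they would have held 1.05 control and 1.95 irradiated peaks in all. Long genes have more room for a peak: Sfmbt2, Gab1 and Smoc1 belong to the longest 10% of protein-coding genes, in which 24.0% had a control peak, 23.3% an irradiated peak and 68.7% neither. Slc38a4 and Jade1 belong to the next class of 10%, with 11.5%, 15.3% and 80.9%.

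**Figure D5:**
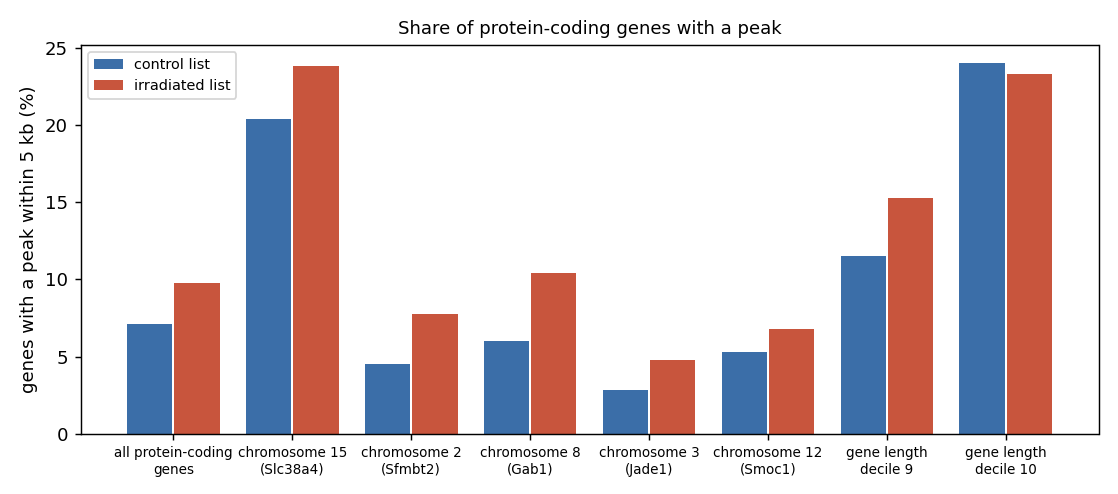
Share of protein-coding genes with a peak within 5 kb (vertical axis, percent; bars start at 0) for all genes, for the chromosome of each of the 5 genes and for the 2 classes of gene length to which they belong. Chromosome 15, which holds Slc38a4, has the highest shares of the 5 chromosomes, 20.4% (control) and 23.8% (irradiated), and chromosome 3, which holds Jade1, the lowest, 2.85% and 4.78%.

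Genes with the same count as Slc38a4, 4 peaks in each list, numbered 4 besides it. The 3 nearest to it in length were Myo7b, an unconventional myosin gene of the brush border (chromosome 18, length ratio 1.27), Slc5a4a, of the sodium and glucose cotransporter family (chromosome 10, 1.46), and Plek, which encodes pleckstrin of platelets and leukocytes (chromosome 11, 1.63). The likeness is that of counts in 2 libraries. These genes had 2, 1 and 1 control peaks that overlapped an irradiated one, and Slc38a4 had 0. Of the 183 genes with at least 4 peaks in both lists, 41 (22.4%) had 0, so nothing is read from this difference.

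Further genes reported as candidates for H3K27me3-dependent imprinting in the early embryo gave a similar picture. In the control list 1 of 19 such genes had a peak, and in the irradiated list 2, 5.26% and 10.5%, near the shares of all protein-coding genes. Xist, the RNA gene of X inactivation, and Slc38a1 and Slc38a2, the neighbours of Slc38a4, were among the 17 with none. Gramd1b, which encodes a sterol transfer protein (chromosome 9, 240 kb long), had 2 control and 5 irradiated peaks, the strongest with folds of 3.43 and 4.16 and q of 0.831 and 0.0536. Epas1, which encodes the hypoxia-inducible factor HIF-2α (chromosome 17), had 2 irradiated peaks, the stronger with 16 reads, a fold of 4.15 (q = 0.0536), and no control peak.

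Genes with classical imprinting, which is set by DNA methylation, were counted beside them. Of 50 genes matched, 5 had a control peak, 5 had an irradiated one (10.0% each) and 3 were counted in both lists. Over all protein-coding genes the shares were 7.13% (control), 9.75% (irradiated) and 4.36% (both), so these counts do not set the list apart. Kcnq1, a potassium channel gene whose imprinted domain is also coated by Polycomb marks in the placenta (chromosome 7, 320 kb), had 6 irradiated peaks and no control peak. Its strongest peak rested on 15 reads, with a fold of 4.47 (q = 0.0157), and no other of the 50 genes had a peak with a q of at most 0.05 in either list. Over all protein-coding genes, 2.51% had such an irradiated peak. Slc22a3, an organic cation transporter gene of the Igf2r domain on chromosome 17, had 1 control and 4 irradiated peaks, with folds of up to 3.43 and 4.35. Airn, the noncoding RNA gene of the same domain, had 1 peak in each list, and Kcnk9, a potassium channel gene on chromosome 15, had 1 and 2.

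Among 44 genes of the Polycomb machinery and its opponents, a list that includes Sfmbt2, 1 had a control and 2 an irradiated peak, 2.27% and 4.55%. The shares over all protein-coding genes were 7.13% and 9.75%, and on so few genes nothing is read from the difference. Scml4, a relative of the Polycomb gene Scm, was counted in both lists, with 2 peaks in each and a lowest control q of 0.0157. Among the 11 amino acid transporter genes of the Slc38 family, Slc38a4 was the one gene with a peak in either list.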

How the data were processed

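The authors deposited 1 peak list per H3K27me3 library, not pooled. BWA, deepTools and the build mm10 are named in the submitters' processing notes; no source used here gives the peak caller or the use of the input. Each deposited line has a start, an end and a summit (other values, in bp) and a score, which equals 10 times the −log10 p without decimals. It also has the authors' fold (enrichment at the summit over local background), an unadjusted −log10 p-value and a −log10 q-value, as deposited. These are the authors' own values and describe peaks within a list.

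Lines giving a further summit of one interval, 215 control and 679 irradiated, were merged, keeping the highest −log10 p. ChIP reads and background at each summit were recovered from fold and p with a Poisson model. The fold was taken as the scaled reads plus 1, divided by the background plus 1, and not as their plain ratio. A whole number of reads, within a tolerance of 0.01 reads, was found for 100% of lines in both lists, with more than 1 solution for 0.0794% and 0.936%. On simulated lists of 5727 and 5769 peaks, 100% were recovered. These lists were made with the same model, so they check the computation and not whether the caller used that model. One read counted as 0.620 and 0.554 scaled reads. Depth is given as reads per summit, since the lists do not hold library totals. Ratios of peak counts have exact (Clopper-Pearson) 95% intervals, which treat peaks as independent.

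Gene bodies and starts came from RefSeq tables of GRCm38.p6. A peak counted for a gene when at least 1 bp lay within 5 kb of the body. Distances are between nearest positions. Named genes are the 5 genes, the nearest protein-coding gene on either side, the 3 genes with equal counts and nearest length, and up to 4 genes with the lowest q from each further list. One gene that this rule took is not reported here. The genes, lists and rules were chosen with earlier results of these data known. The further lists also hold noncoding genes; 50 of 51 classically imprinted genes matched. Alternatives were other windows, stricter thresholds, equal lists, merged or unmerged peaks, summits and other overlaps. Python 3.11.15, pandas and scipy were used.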

Additional observations from a re-analysis of the deposited data

How the results depend on the processing

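No paired analysis was possible because each condition had 1 library, and for the same reason no library could be left out. The result that Slc38a4 alone held peaks, 4 in each list, did not change with windows of 0 or 2000 bp beyond 1.5 times (3 control peaks in the gene body), with equal lists, with every line counted as a peak, with peaks within 1000 bp merged (3 irradiated peaks), or with summits in place of any overlap. With 20 kb on either side there were 7 control peaks at 3 of the 5 genes (Slc38a4, Gab1 and Jade1), while the irradiated count stayed at 4 at 1 gene. Over all protein-coding genes that window raised the shares to 13.6% (control) and 18.6% (irradiated). On 5 genes nothing is read from these counts. With a −log10 p of at least 3, 2 control and 4 irradiated peaks remained. Over all protein-coding genes, 5.27% (control) and 8.65% (irradiated) had such a peak. With a −log10 p of at least 5 there were 0 control peaks and 1 irradiated peak, so 0 genes had a peak in the control list or in both. With a q of at most 0.05, 0 peaks were left at 0 genes in either list. In these last settings the lower counts follow from the removal of weaker peaks. The number of control peaks shared with the irradiated list was 0 with any overlap, with a reciprocal overlap of 50%, with a gap of up to 500 bp and in the gene body alone. The depth limits all of these counts: the peaks at Slc38a4 rested on 7 to 13 reads.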
